A study of Homo sapiens with 9 samples.

Results

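Cells depleted of NFKB2 were compared directly with cells depleted of RELB, the partners of the non-canonical NF-kB pathway. The comparison took all 3 libraries of U2OS cells given siRNA against NFKB2 (siNFKB2) and all 3 given siRNA against RELB (siRELB), 6 of the 9 libraries of the study. U2OS is a human osteosarcoma line, and each library holds read counts per gene from oligo-dT selected RNA. Every group had its siRNA at 75 nM with a lipid transfection reagent and was collected at 48 h, and a non-silencing siRNA (siNS) was used for the remaining 3 libraries. Of 44608 gene entries, 14815 passed the filter on low counts and were tested. No rescue and no other cell line is among these libraries, so an effect of losing the target and any other effect of that siRNA cannot be told apart. The labels do not say that replicates were separate cultures, so p-values reflect the spread of these libraries alone, part of which may be technical. Levels are in CPM, counts relative to a scaled library size, and values of 3 libraries are given in the order of replicates 1, 2 and 3. A log2 difference above 0 means a higher level in siNFKB2 than in siRELB. The threshold for a call was an adjusted p of 0.05.

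NF-kB is a family of transcription factors that bind DNA as pairs of subunits. NFKB2 encodes the p100 precursor, which holds its partners in the cytoplasm until it is processed to p52, and RELB encodes the subunit that p52 typically joins. The NFKB2 product is thus known both as an inhibitor and as a source of a DNA-binding subunit, while RELB carries a transactivation domain. Classical NF-kB dimers of RELA and p50 drive cytokine, chemokine and survival genes, and IkB proteins and ubiquitin-editing enzymes restrain them.

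NFKB2 (chr10:102394110-102402529, plus strand, GRCh38, GENCODE 29) was at 5.26, 22.9 and 48.4 CPM in siNFKB2 and at 117, 169 and 168 CPM in siRELB. The siNS libraries held 80.7, 126 and 117 CPM. All 3 siNFKB2 libraries were below all others, but they differed among themselves, with the least NFKB2 left in replicate 1. The log2 difference was -2.58 (SE 0.572, adjusted p = 0.0088), and without siNFKB2 replicate 2 the call was lost at an adjusted p of 0.051. RELB (chr19:45001430-45038198, plus strand) was at 2.66, 4.66 and 5.36 CPM in siRELB, 21.1, 41.9 and 42.9 CPM in siNFKB2 and 17.1, 30.3 and 34.1 CPM in siNS. The siRELB libraries lay below all others, and the difference was 3.06 (SE 0.372, adjusted p = 0.000493). Each gene was therefore low in the libraries labelled with its own siRNA and not in those labelled with the other. The 3 other subunits did not pass the test. NFKB1, which encodes p105 and p50, differed by 0.23 (adjusted p = 0.212), RELA, the main classical transactivating subunit, by 0.21 (0.188), and REL by -0.28 (0.457). Without the 3 libraries numbered 1, NFKB1 (0.36) and RELA (0.31) passed.

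**Figure D1:**
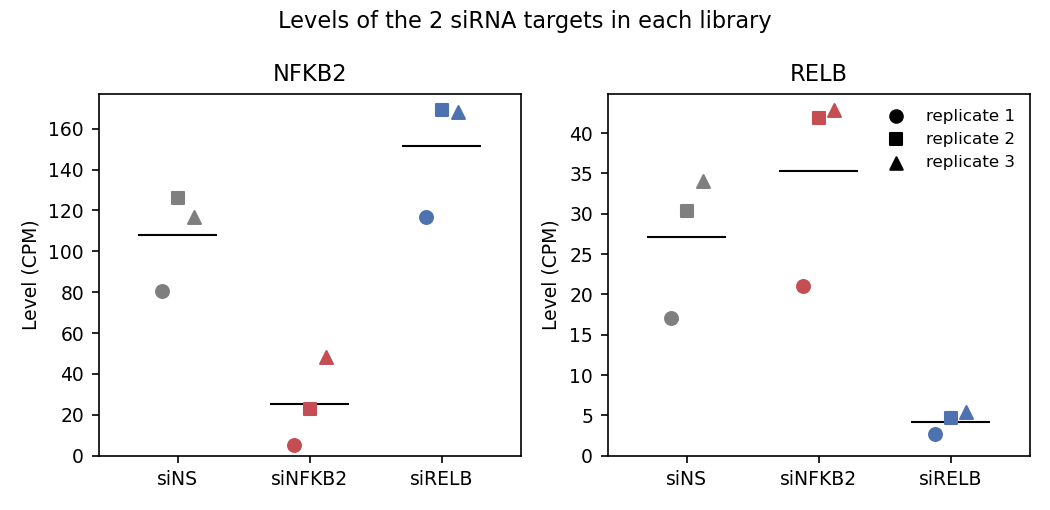
Levels of NFKB2 (left) and RELB (right) in CPM for each of 9 libraries, grouped by siRNA; marker shapes give the replicate number and bars the group mean. NFKB2 lies between 5.26 and 48.4 CPM in siNFKB2 and RELB between 2.66 and 5.36 CPM in siRELB, below every other library.

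The knockdowns differed widely. Of the 14815 genes tested, 3934 (26.6%) were called, 1813 higher in siNFKB2 (12.2%) and 2121 lower (14.3%). The difference was at least 1 on the log2 scale, in either direction, for 605 higher and 864 lower genes, and at least 2 for 111 and 138. Over all tested genes the median difference was 0.02. The 3 libraries of one group did not overlap those of the other for 6811 tested genes (46%). Libraries with the same replicate number deviated from their group means together, although numbers 2 and 3 were not clearly told apart. With the replicate number as a block 6054 genes (40.9%) were called, 2957 higher (20%) and 3097 lower (20.9%). All 3934 genes were among them. The count rested on single libraries, since it was 2188 without siNFKB2 replicate 2, 2593 without siNFKB2 replicate 3, 2312 without siRELB replicate 2 and 2340 without siRELB replicate 3.

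**Figure D2:**
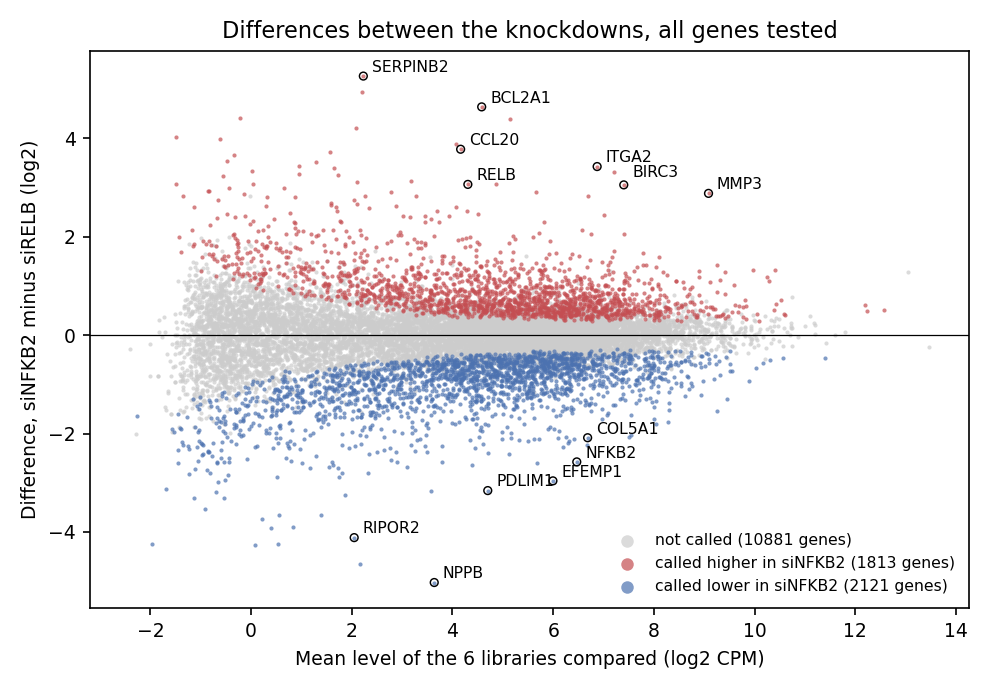
Log2 difference (siNFKB2 minus siRELB) of each of 14815 tested genes against the mean level of the 6 libraries in log2 CPM; red points are the 1813 genes called higher in siNFKB2, blue points the 2121 called lower, grey points were not called. Circles mark named genes, from SERPINB2 at 5.26 to NPPB at -5.03.

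Many secreted inflammatory signals were higher in siNFKB2 and some were lower. Of 18 tested interleukins, colony stimulating factors and TNF ligands (of 27 listed), 7 were called higher (38.9%, beside 12.2% of all tested genes) and 4 lower (22.2%, beside 14.3%), with a median difference of 0.72 against 0.02 over all genes. IL24, a cytokine of the IL-10 family, was at 50.6, 56.5 and 48.0 CPM in siNFKB2, 6.10, 5.75 and 6.57 CPM in siRELB and 3.26, 2.38 and 2.31 CPM in siNS, a difference of 3.07 (SE 0.16, adjusted p = 2.89e-05). Its 3 siNFKB2 libraries were close together and far from all others. IL1A, an interleukin-1 released by damaged cells, was at 17.3, 35.1 and 34.4 CPM in siNFKB2 against 4.92, 4.66 and 4.65 CPM in siRELB (difference 2.61, adjusted p = 0.000254). CSF2, which encodes the growth factor GM-CSF, was at 6.92, 40.3 and 47.0 CPM against 1.18, 2.6 and 2.57 CPM (3.89, adjusted p = 0.00185). IL1B, the other classical interleukin-1, was at 1.18, 8.06 and 7.21 CPM against 0.615, 0.217 and 0.383 CPM (3.72, adjusted p = 0.00366). In these 3 genes the groups did not overlap, and siNFKB2 replicate 1 was the lowest of its group. IL32 followed with a difference of 1.23. Others of the family went the opposite way. IL11, a gp130 cytokine linked to bone and fibrosis, was at 15.3, 12.4 and 12.4 CPM in siNFKB2 against 24.2, 41.0 and 36.2 CPM in siRELB (-1.34, adjusted p = 0.00636). IL15, which sustains lymphocytes, differed by -1.34 and IL18, an inflammasome substrate, by -0.62. The list's 7 became 4 without siNFKB2 replicate 2 or 3 or at a mean of at least 5 CPM, and 11 without siNFKB2 replicate 1 or without all libraries numbered 1. It was also 4 without siRELB replicate 3, and the 4 lower became 2 without siNFKB2 replicate 3. IL18 lost its call without siNFKB2 replicate 2 or 3, and IL32 without either of these or siRELB replicate 1 or 3.

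Of 9 tested chemokines (of 18 listed), 4 were higher in siNFKB2 (44.4%, beside 12.2% of all tested genes). Lower were 2 (22.2%, beside 14.3%), and the median was 0.09. CCL20, the ligand of CCR6, was at 11.7, 49.3 and 39.1 CPM in siNFKB2, 1.79, 2.6 and 2.9 CPM in siRELB and 1.79, 2.06 and 2.31 CPM in siNS (difference 3.78, SE 0.47, adjusted p = 0.000556). The siRELB and siNS libraries covered the same low range. CXCL8, which attracts neutrophils, was at 41.0, 118 and 117 CPM in siNFKB2 and at 14.6, 38.6 and 35.0 CPM in siRELB, both groups above the 4.84, 6.19 and 7.19 CPM of siNS (1.64, adjusted p = 0.0171). CCL2, which attracts monocytes, differed by 1.15 and CXCL3 by 3.00, although CXCL3 overlapped between the groups, with 0.215 CPM in siNFKB2 replicate 1. The eotaxin CCL26 was at 3.17, 1.45 and 2.45 CPM in siNFKB2 against 12.5, 12.6 and 11.7 CPM in siRELB (-2.37, adjusted p = 0.0011), and CXCL14 differed by -1.61. The calls of CXCL8, CCL2 and CXCL3 were lost without siNFKB2 replicate 2 or 3, which left 1 higher chemokine, CCL20. Without siRELB replicate 1 the calls of CCL2 and CXCL3 were lost and 2 remained, and CXCL3 was also lost without siRELB replicate 2 or 3.

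Other genes that classical NF-kB is known to induce in many cells held more higher than lower calls. Of 20 tested (of 25 listed), 9 were higher (45%, beside 12.2% of all tested genes) and 1 lower (5%, beside 14.3%). The median was 0.53, and with the replicate block 11 were higher and 2 lower. BCL2A1, a survival protein of the BCL2 family, was at 12.6, 62.3 and 63.0 CPM in siNFKB2 against 1.02, 2.66 and 1.86 CPM in siRELB (difference 4.64, SE 0.602, adjusted p = 0.00064). G0S2, an inhibitor of fat breakdown, was at 29.6, 89.0 and 84.0 CPM against 2.97, 3.42 and 3.28 CPM (4.39, adjusted p = 0.000367). SAA2, an acute-phase protein, differed by 2.73, TNFAIP2 by 1.57, the mitochondrial superoxide dismutase SOD2 by 1.11 and BCL2L1, which encodes BCL-XL, by 0.56. BCL2L1 shares 43.0% of its exonic length with ABALON on the opposite strand, and counting by strand is not given in the sources used here. ICAM1 (1.06), an adhesion molecule for leukocytes, and TNFAIP8 (-1.19), the single lower member, were chosen after their values were seen. ICAM1 lost its call without siNFKB2 replicate 2 or 3 or any of the siRELB replicates, and without siNS replicate 1 or siRELB replicate 1 the list had 2 lower.

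The BCL2 family, which sets the threshold for apoptosis at mitochondria, had 3 higher and 3 lower of 18 tested, 16.7% each way, near the 12.2% and 14.3% of all tested genes, with a median of 0.23, and the replicate block gave 6 and 6. The higher members were the survival genes BCL2A1 and BCL2L1 given above and BCL2L13 (0.58), a mitochondrial member chosen after its values were seen. On the lower side stood BAK1, a pore-forming effector of apoptosis, at 30.1, 29.5 and 26.6 CPM in siNFKB2, 49.7, 45.5 and 43.2 CPM in siRELB and 48.5, 40.1 and 46.7 CPM in siNS (difference -0.68, SE 0.123, adjusted p = 0.00322). All its siNFKB2 libraries were below all others. BMF (-1.53) and BCL2L11 (-0.44, chosen after its values were seen), which encodes BIM, were lower too. Without siNS replicate 1 the family had 5 higher and 5 lower, and without siNFKB2 replicate 1 it had 5 higher. Calls were lost for BCL2L13 and BCL2L11 without siNFKB2 replicate 2 or siRELB replicate 2 or 3, and for BCL2L11 also without siNS replicate 3, siNFKB2 replicate 3 or siRELB replicate 1 and with no filter on low counts.

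**Figure D3:**
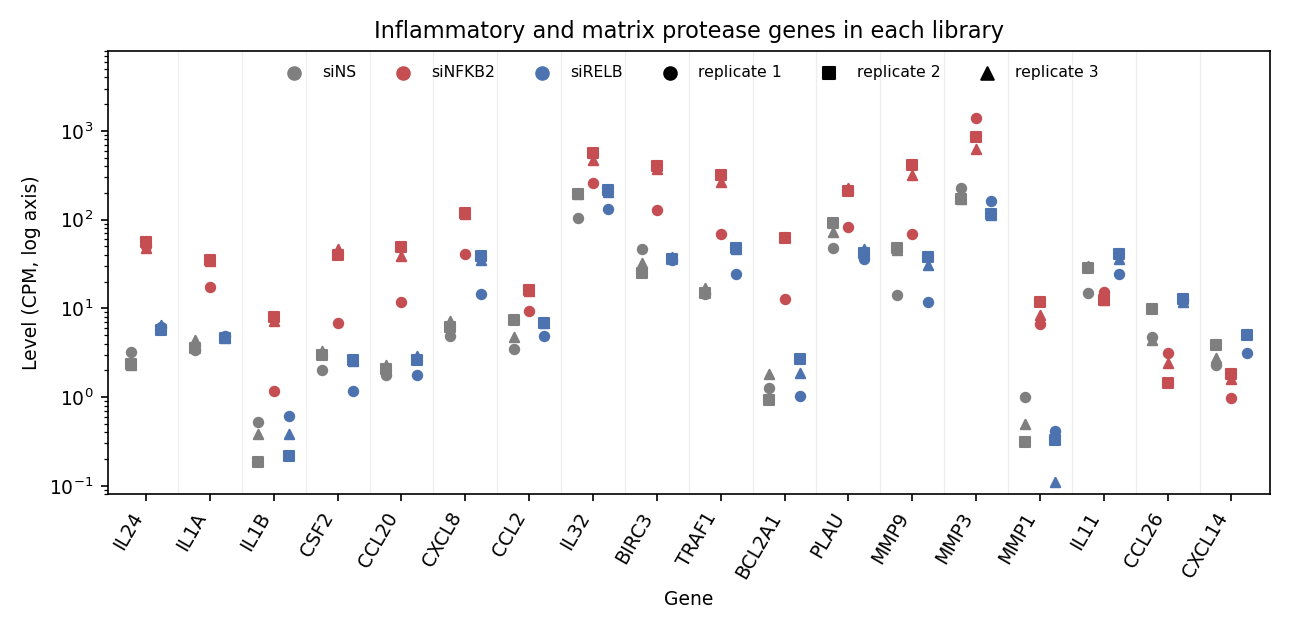
Levels in CPM on a log axis of 18 cytokine, chemokine, survival and protease genes in each library, grey for siNS, red for siNFKB2 and blue for siRELB, with marker shapes for the replicate number. The siNFKB2 libraries lie above the siRELB libraries for the first 15 genes, and replicate 1 is the lowest of the siNFKB2 libraries for CSF2, CCL20, BCL2A1 and MMP9; IL11, CCL26 and CXCL14 lie lower in siNFKB2.

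The machinery around NF-kB held a few large rises. Among 20 tested adaptors and kinases, 5 were higher (25%, beside 12.2% of all tested genes) and 2 lower (10%, beside 14.3%), with a median of 0.09, and the replicate block gave 4 lower. BIRC3, the ubiquitin ligase cIAP2 that acts at TNF receptors and on the kinase NIK, was at 128, 405 and 372 CPM in siNFKB2, 34.6, 36.4 and 38.1 CPM in siRELB and 47.2, 25.3 and 32.0 CPM in siNS (difference 3.05, SE 0.389, adjusted p = 0.000612). TRAF1, an adaptor of TNF receptors, was at 68.8, 317 and 266 CPM in siNFKB2 against 24.6, 47.8 and 47.1 CPM in siRELB (2.45, adjusted p = 0.00429). Both were lowest in replicate 1 within siNFKB2 and did not overlap between groups. The kinases TBK1 (0.88) and IKBKE (0.68) and the adaptor TRAF3 (0.51), which keeps NIK low, were higher by smaller amounts. TAB1 (-0.53) and RIPK1 (-0.31) were lower. The calls of TRAF3, TAB1 and RIPK1 were lost without siNFKB2 replicate 3 or siRELB replicate 3 and those of TRAF3 and RIPK1 also without siNFKB2 replicate 2 or siRELB replicate 2, so the 2 lower became 1 or 0. RIPK1 was also lost without siNS replicate 2 or 3, without siRELB replicate 1 and with no filter on low counts. Among the restraints, 4 of 14 tested were higher (28.6%) and 2 lower (14.3%, the share of all tested genes). CYLD, a deubiquitinase that shuts signalling off, was at 179, 204 and 179 CPM in siNFKB2 against 114, 93.5 and 88.4 CPM in siRELB (0.93, adjusted p = 0.00241), and NFKBIE, which encodes IkB-epsilon, differed by 1.38. OTULIN, which trims linear ubiquitin chains, was at 57.4, 36.1 and 36.3 CPM in siNFKB2 against 106, 89.5 and 97.3 CPM in siRELB (-1.17, adjusted p = 0.0023), and TRAFD1, a feedback inhibitor of innate signalling, differed by -0.94. The early response genes NFKBIA (0.43) and TNFAIP3 (0.45), chosen after their values were seen, did not pass, although both did without siNFKB2 replicate 1 (0.68 and 0.66) and TNFAIP3 did with the block. TNIP3 and ZC3H12A, the other 2 higher restraints, lost their calls without siNFKB2 replicate 2 or 3 or siRELB replicate 3, ZC3H12A also without siNS replicate 3 or siRELB replicate 1 or 2, which left 2 higher without siNFKB2 replicate 2 or 3 or siRELB replicate 3. Without siNFKB2 replicate 1 the list had 7 higher.

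Of 16 tested members of the TNF receptor superfamily, 5 were higher in siNFKB2 (31.2%, beside 12.2% of all tested genes). Lower were 2 (12.5%, beside 14.3%), and the median was 0.45. TNFRSF11B, the decoy receptor osteoprotegerin of bone, was at 24.9, 48.7 and 43.1 CPM in siNFKB2 against 17.0, 18.6 and 17.0 CPM in siRELB (difference 1.15, SE 0.218, adjusted p = 0.00405). TNFRSF10B, a death receptor for TRAIL, was at 301, 441 and 406 CPM against 196, 260 and 252 CPM (0.70, adjusted p = 0.0115), and its call was lost without siNFKB2 replicate 2. LTBR, which starts non-canonical signalling and was chosen after its values were seen, was at 117, 174 and 144 CPM against 86.2, 96.8 and 95.4 CPM (0.64). Without siNFKB2 replicate 2, siRELB replicate 2 or siRELB replicate 3 the list had 3 higher members. LTBR was lost without siNFKB2 replicate 2 or 3 or any of the siRELB replicates. None was lower in those 5 cases or without siNS replicate 3, and 1 was lower without siNFKB2 replicate 1.

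Promoters of 10956 tested genes could be taken from RefSeq, each as the 250 bases before and 50 bases after a gene's start, and searched on both strands for the kB consensus, the sequence that NF-kB dimers bind. Among tested genes 13% held a match, among genes called higher 13.8% and among those called lower 14.5%, so the shares were much alike. By list, matches stood in 2 of 18 adaptors and kinases, the list of BIRC3, 2 of 11 TNF receptors and 5 of 12 restraints with a promoter. They stood in 4 of 12 interleukins and related ligands, 2 of 6 chemokines and 5 of 17 other NF-kB-induced genes. Metalloproteinases and inhibitors, a list without MMP9, had 0 of 8. Among lists described below, integrins had 6 of 12, MHC class I genes 4 of 9 and cholesterol genes 5 of 19. Fanconi anaemia genes had 0 of 20 and AP-1 and MAP kinase feedback genes 1 of 23. High shares were thus not limited to the NF-kB and cytokine lists. The promoters of CCL20 (chr2:227813592-227813891, plus strand, GRCh38.p14) and BIRC3 (chr11:102317234-102317533, plus strand) are shown because both genes were several-fold higher in siNFKB2, and capitals mark the matches, at -79 in CCL20 and at -199 and -135 in BIRC3 relative to the gene's start. A match is a description of these letters, not evidence of binding.
CCL20: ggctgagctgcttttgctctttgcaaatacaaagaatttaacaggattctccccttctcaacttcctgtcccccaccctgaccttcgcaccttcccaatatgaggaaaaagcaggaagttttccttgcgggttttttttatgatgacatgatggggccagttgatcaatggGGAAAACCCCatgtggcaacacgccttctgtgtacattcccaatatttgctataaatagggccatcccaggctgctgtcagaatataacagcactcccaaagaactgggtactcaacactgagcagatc
BIRC3: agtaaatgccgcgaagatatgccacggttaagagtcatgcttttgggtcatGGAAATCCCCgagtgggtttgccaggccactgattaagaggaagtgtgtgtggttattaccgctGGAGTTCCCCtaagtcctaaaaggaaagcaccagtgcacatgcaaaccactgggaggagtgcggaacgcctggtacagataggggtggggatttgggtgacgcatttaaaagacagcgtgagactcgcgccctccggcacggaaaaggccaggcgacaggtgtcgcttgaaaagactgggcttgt

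Of 16 tested matrix metalloproteinases and inhibitors (of 20 listed), 6 were higher in siNFKB2 (37.5%, beside 12.2% of all tested genes). Lower were 4 (25%, beside 14.3%), and the median was 0.39. MMP3, stromelysin 1, was at 1384, 851 and 632 CPM in siNFKB2, 163, 114 and 112 CPM in siRELB and 226, 173 and 173 CPM in siNS (difference 2.88, SE 0.282, adjusted p = 0.000226). Here siNFKB2 replicate 1 was the highest library. MMP1, the interstitial collagenase, was at 6.71, 11.7 and 8.47 CPM against 0.410, 0.325 and 0.109 CPM (4.95, adjusted p = 0.000179). MMP9 and PLAU are not in this list but among the higher members of the other NF-kB-induced genes above. MMP9, a gelatinase, was at 68.6, 418 and 317 CPM against 11.8, 38 and 30.8 CPM (3.32, adjusted p = 0.00648). PLAU, the urokinase that activates plasminogen, was at 82.9, 208 and 225 CPM against 36.2, 42.3 and 46.6 CPM (2.05, adjusted p = 0.00236). None of these overlapped between the groups. MMP9 shares 18.4% of its exonic length with SLC12A5-AS1 and PLAU 31.1% with C10orf55, both on the opposite strand. SERPINB2, an inhibitor of urokinase, is in neither list. It was at 3.70, 14.7 and 9.0 CPM in siNFKB2 against 0.205, 0.271 and 0.219 CPM in siRELB, a difference of 5.26 (SE 0.589, adjusted p = 0.000371). Among the inhibitors of metalloproteinases TIMP3 was at 17.6, 12.1 and 11 CPM in siNFKB2 against 59.7, 58.5 and 56.7 CPM in siRELB (-2.10, adjusted p = 0.000134), while TIMP1 (1.32), chosen after its values were seen, was higher. The brain-enriched MMP24 differed by -2.22. Without siNFKB2 replicate 2, siNFKB2 replicate 3 or siRELB replicate 2, 3 members were called higher. TIMP1 lost its call in these cases and without siRELB replicate 1.

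Integrins are the receptors that bind cells to matrix, and 3 of 18 tested were higher and 3 lower in siNFKB2, 16.7% each way beside 12.2% and 14.3% of all tested genes. ITGA2, the collagen-binding alpha-2 subunit, was at 163, 261 and 219 CPM in siNFKB2, 33.3, 13 and 13.5 CPM in siRELB and 125, 84.2 and 105 CPM in siNS (difference 3.42, SE 0.364, adjusted p = 0.000314), so siNS lay between the knockdowns without overlap. ITGA6, the laminin-binding alpha-6 subunit, was at 128, 81.5 and 84.9 CPM in siNFKB2, 266, 238 and 232 CPM in siRELB and 339, 222 and 253 CPM in siNS (-1.32, adjusted p = 0.00133). Its partner ITGB4 differed by -1.92 and ITGB3, part of the vitronectin receptor, by -2.22. ITGB3 shares 51.6% of its exonic length with an overlapping gene on the same strand, AC068234.1. With the replicate block 5 integrins were higher and 3 lower.

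Among 48 tested collagens, laminins and other matrix genes (of 53 listed), 16 were lower in siNFKB2 (33.3%, beside 14.3% of all tested genes). Higher were 6 (12.5%, near the 12.2% of all tested genes), and the median was -0.26. EFEMP1, the elastic-fibre protein fibulin-3, was at 22.9, 10.2 and 10.3 CPM in siNFKB2, 113, 113 and 113 CPM in siRELB and 135, 126 and 129 CPM in siNS (difference -2.96, SE 0.275, adjusted p = 0.000179). COL5A1, a chain of the collagen that nucleates fibrils, was at 37.7, 41.7 and 38.2 CPM against 136, 184 and 178 CPM in siRELB (-2.09, adjusted p = 0.000378). COL8A1 (-1.26) and LTBP1 (-1.18), which stores latent TGF-beta in the matrix, were also lower. Fewer were lower without siNFKB2 replicate 2 (10), siNFKB2 replicate 3 (10), siRELB replicate 2 (9) or siRELB replicate 3 (10). Only 3 were higher without siRELB replicate 1 and 2 without siRELB replicate 3.

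Cell cycle genes were lower in siNFKB2 by moderate amounts and in large numbers. Of 47 tested genes of DNA replication and the G1/S transition, 36 were lower (76.6%, beside 14.3% of all tested genes) and none higher by edgeR. None was higher at an unadjusted p under 0.05 and none by DESeq2. The median was -0.71 (median against siNS -0.91 for siNFKB2 and -0.14 for siRELB, which share the siNS libraries). All 6 subunits of the MCM helicase, the licensing factors CDC6, CDT1 and ORC1, and the sliding clamp PCNA, apart from MCM3 all chosen after their values were seen, were among the 36, of which CDT1 was lost without siNFKB2 replicate 2 or siRELB replicate 2 and the subunit MCM2 without siNFKB2 replicate 2 or 3 or siRELB replicate 1. CDC45, which activates that helicase, was at 58.0, 48.2 and 48.8 CPM in siNFKB2, 96.8, 102 and 99.8 CPM in siRELB and 108, 108 and 115 CPM in siNS (difference -0.94, SE 0.11, adjusted p = 0.000414). MCM3, one of the helicase subunits, was at 145, 106 and 104 CPM in siNFKB2 against 263, 253 and 268 CPM in siRELB (-1.14, adjusted p = 0.00042). UHRF1, which carries DNA methylation through replication, was at 24.1, 22.1 and 23.9 CPM against 57.0, 56.0 and 50.9 CPM (-1.23), and GMNN, the licensing inhibitor geminin, differed by -0.94. In each of these genes the siNFKB2 libraries lay below all siRELB and siNS libraries.

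Of 70 tested genes of mitosis and the G2/M transition (of 72 listed), 51 were lower (72.9%, beside 14.3% of all tested genes). Higher were 2 (2.86%, beside 12.2%), and the median was -0.62. ESPL1, the separase that splits sister chromatids, was at 41.2, 27.6 and 30.3 CPM in siNFKB2, 89.2, 96.9 and 97.0 CPM in siRELB and 96.9, 92.7 and 85.0 CPM in siNS (difference -1.51, SE 0.153, adjusted p = 0.000256). CDC20, which triggers anaphase, was at 163, 110 and 123 CPM against 299, 346 and 329 CPM in siRELB (-1.30, adjusted p = 0.000486). PRC1, which bundles the spindle midzone, differed by -0.78, and it shares 57.6% of its exonic length with an overlapping gene on the same strand, AC068831.7. BUB3, a spindle checkpoint protein, went the other way, at 224, 280 and 261 CPM against 148, 142 and 141 CPM (0.83, adjusted p = 0.000659). For BUB3 the siNS libraries, at 202.5, 200.7 and 217.7 CPM, lay between the knockdowns. CKS1B (0.61), chosen after its values were seen, was the other higher member, and its call was lost without siNFKB2 replicate 1 or 2 or siRELB replicate 2 or 3. Among E2F and RB regulators and CDK inhibitors 9 of 30 tested were lower (30%, beside 14.3%) and 5 higher (16.7%, beside 12.2%). With the replicate block 11 were lower and 8 higher. E2F1, the activator of the G1/S genes, was at 24.5, 19.9 and 21.0 CPM in siNFKB2 against 52.1, 53.7 and 52.0 CPM in siRELB (-1.27, SE 0.141, adjusted p = 0.000367). CDKN2C, the CDK4 and CDK6 inhibitor p18, differed by -1.28 and the phosphatase CDKN3 by -0.85. CDKN1A, the CDK inhibitor p21, was at 490, 717 and 610 CPM against 383, 328 and 326 CPM (0.81, adjusted p = 0.00268), chosen after its values were seen. Replication-dependent histones, whose polyadenylated transcripts alone are captured by oligo-dT, had 7 of 22 tested higher by edgeR (31.8%, beside 12.2%). None was lower by edgeR, also none at an unadjusted p under 0.05 or by DESeq2. HIST1H2BK was at 195, 234 and 221 CPM against 80.7, 72.4 and 64.7 CPM (1.58, adjusted p = 0.000134), and without siRELB replicate 3 the histone count was 2, without siRELB replicate 2 or siNFKB2 replicate 2 it was 3 and without siNFKB2 replicate 3 it was 4.

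The promoters of these lists hold known letters at high shares. The E2F letters TTTGGCGC, TTTGGCGG and TTTCCCGC, on either strand, stood in 22 of 41 G1/S promoters (53.7%) and in 4.51% of tested promoters, in 6.61% of promoters of lower genes and 2.32% of those of higher genes. The cell cycle homology region TTTGAA, on either strand, stood in 39 of 57 G2/M promoters (68.4%) and in 10.1% of tested promoters, in 11.3% for lower genes and 11.1% for higher genes. Over all 27305 promoters of the table the shares were 2.95% and 15.4%. The promoters of E2F1 (chr20:33686336-33686635, minus strand), CDC45 (chr22:19479670-19479969, plus strand), CDC20 (chr1:43358731-43359030, plus strand) and ESPL1 (chr12:53268049-53268348, plus strand) are shown. CDC45 is of the G1/S list, and CDC20 and ESPL1 are of the G2/M list. E2F1 is of neither but of the E2F and RB regulators, where the E2F letters stood in 5 of 24 promoters (20.8%). Capitals mark the E2F letters in E2F1 and CDC45 and TTTGAA or its complement in CDC20 and ESPL1.
E2F1: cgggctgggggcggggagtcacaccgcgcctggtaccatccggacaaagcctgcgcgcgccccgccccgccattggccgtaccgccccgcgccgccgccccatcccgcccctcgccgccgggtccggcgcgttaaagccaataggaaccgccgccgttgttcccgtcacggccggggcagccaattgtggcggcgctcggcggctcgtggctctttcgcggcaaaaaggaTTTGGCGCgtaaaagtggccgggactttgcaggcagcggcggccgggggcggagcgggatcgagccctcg
CDC45: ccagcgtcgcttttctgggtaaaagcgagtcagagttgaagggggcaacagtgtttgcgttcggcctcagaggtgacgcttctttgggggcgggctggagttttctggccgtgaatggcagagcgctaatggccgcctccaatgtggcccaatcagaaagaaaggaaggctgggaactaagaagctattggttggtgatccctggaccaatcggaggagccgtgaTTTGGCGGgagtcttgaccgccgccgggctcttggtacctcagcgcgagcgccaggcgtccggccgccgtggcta
CDC20: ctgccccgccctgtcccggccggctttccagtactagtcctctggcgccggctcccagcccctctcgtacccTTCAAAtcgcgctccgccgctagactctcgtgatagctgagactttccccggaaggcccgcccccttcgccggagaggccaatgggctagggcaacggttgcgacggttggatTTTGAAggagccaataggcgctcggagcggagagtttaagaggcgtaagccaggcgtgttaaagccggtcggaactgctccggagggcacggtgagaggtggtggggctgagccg
ESPL1: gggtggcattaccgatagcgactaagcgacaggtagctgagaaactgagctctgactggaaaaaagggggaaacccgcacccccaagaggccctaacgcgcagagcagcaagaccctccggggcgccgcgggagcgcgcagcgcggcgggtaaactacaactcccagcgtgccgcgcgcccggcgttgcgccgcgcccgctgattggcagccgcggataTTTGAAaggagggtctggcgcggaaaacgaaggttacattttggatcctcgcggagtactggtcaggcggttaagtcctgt

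**Figure D4:**
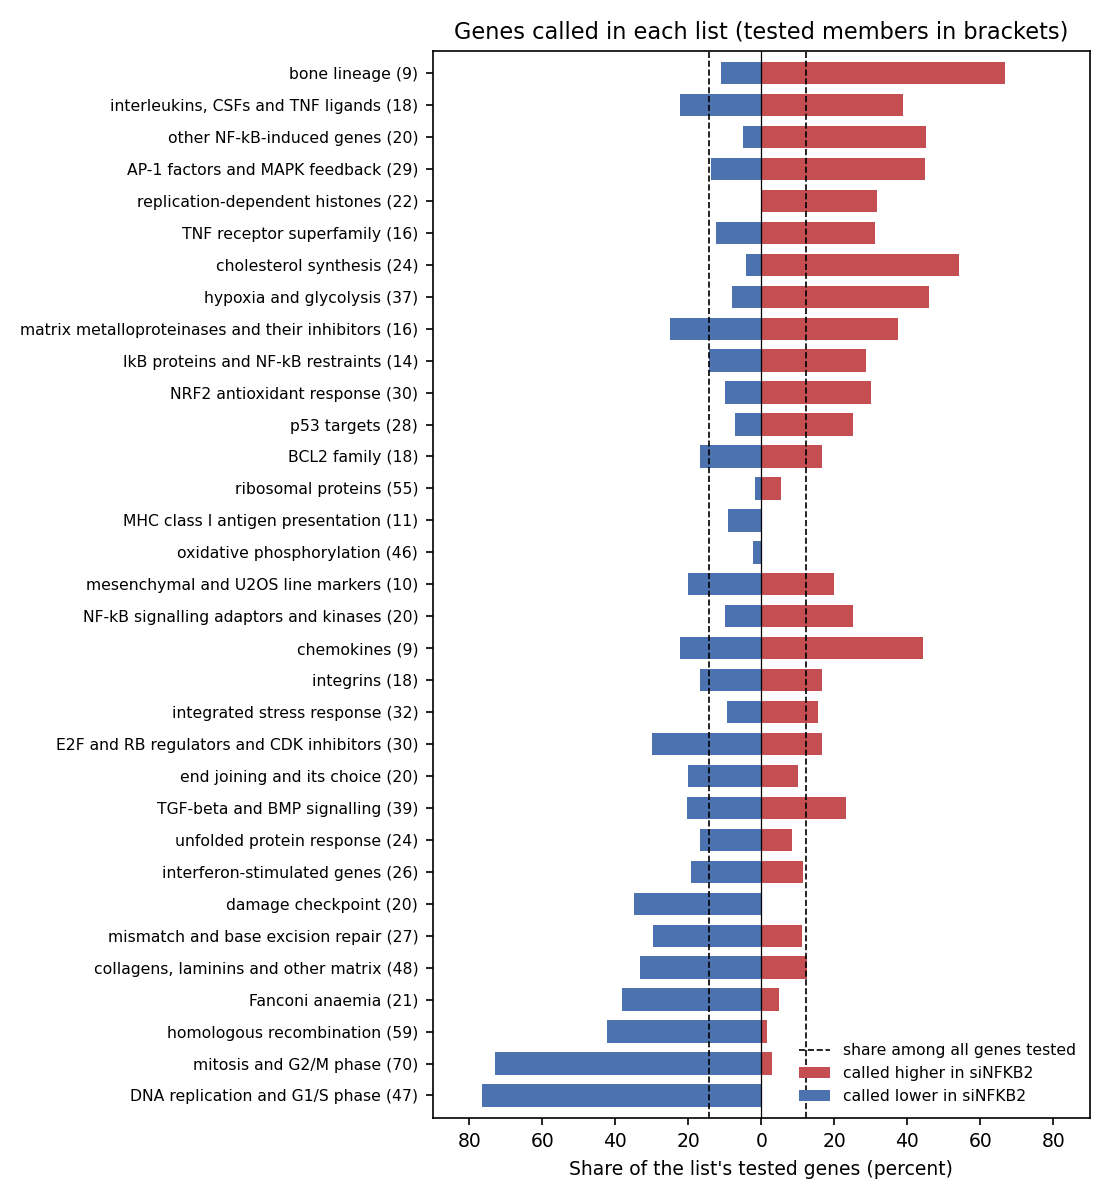
Share of each list's tested genes called lower (blue, to the left) and higher (red, to the right) in siNFKB2 than in siRELB, in percent, ordered by the list's median difference; dashed lines give the shares among all genes tested, 14.3% lower and 12.2% higher. Replication and mitosis genes reach 76.6% and 72.9% lower, cholesterol synthesis 54.2% higher, and ribosomal proteins stay below both lines.

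Homologous recombination, the repair of double-strand breaks from a sister template, is the pathway that the series title ties to NFKB2. Of 59 tested members (of 65 listed), 25 were lower in siNFKB2 than in siRELB (42.4% of the list against 14.3% of all genes) and 1 was higher, with a median of -0.50. The direction had been seen against siNS in these data, so it is no independent support. BLM, a helicase that resolves recombination intermediates, was at 28.1, 22.2 and 20.8 CPM in siNFKB2, 49.6, 45.7 and 52.5 CPM in siRELB and 51.0, 49.5 and 49.8 CPM in siNS (difference -1.05, SE 0.136, adjusted p = 0.000622). RMI2, a member of its complex, was at 12, 11.6 and 12.1 CPM against 19.9, 26.7 and 23.7 CPM in siRELB (-0.98, adjusted p = 0.00131). BRIP1, a DNA helicase shared with crosslink repair, was at 50.1, 42.3 and 44.6 CPM against 103, 92.8 and 96.5 CPM (-1.09, adjusted p = 0.00129). The nuclease DNA2, which resects broken ends, differed by -1.02, the paralogue RAD51D, which assists strand exchange, by -0.91, and the translocase RAD54B by -0.67. On the same strand FSBP covers 59.1% of the exonic length of RAD54B. BABAM2, a scaffold of a nuclear deubiquitinase complex, was at 61.9, 48.3 and 41.2 CPM in siNFKB2, 91.7, 119 and 115 CPM in siRELB and 76.7, 82.9 and 77.3 CPM in siNS (-1.10, adjusted p = 0.00111), so its siRELB libraries lay above siNS. HELQ (0.40), a helicase chosen after its values were seen, was the higher member, and it was lost with no filter on low counts and without any 1 library other than siNS replicate 1 or 2. End resection factors RBBP8 (-0.27) and RAD50 (0.06) and the annealing factor RAD52 (0.32), also chosen after their values were seen, did not pass. With the replicate block 33, RBBP8 (-0.28) among them, were lower and 4 higher. Also 4 were higher by DESeq2 and without siNS replicate 1 or 2. The lower count was 13 without siNFKB2 replicate 2, without siRELB replicate 2 it was 16 and without siRELB replicate 3 it was 15. The cell cycle lists moved in the same libraries. No recombination gene is a member of those lists, which only reflects how the lists were drawn up. The part of the cell cycle in the recombination result was not tested. E2F letters stood in 4.08% and TTTGAA in 10.2% of 49 recombination promoters, beside 4.51% and 10.1% of all tested. These shares describe letters and were not a test of that part.

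Genes of the other repair pathways were called too. Of 21 tested Fanconi anaemia genes, which repair crosslinks between strands, 8 were lower (38.1%, beside 14.3% of all tested genes). Higher was 1 (4.76%, beside 12.2%), and the median was -0.31. With the replicate block 9 were lower and 4 higher. UBE2T, the conjugating enzyme of the pathway, was at 39.0, 42.2 and 42.3 CPM in siNFKB2 against 64.8, 83.6 and 78.8 CPM in siRELB (difference -0.88, adjusted p = 0.00177), and the core complex genes FANCC (-0.82), FANCG (-0.81) and FANCE (-0.76) were lower as well. Without siRELB replicate 3, 5 were lower. The higher count was 2 without siNS replicate 1 and 0 without siNFKB2 replicate 2 or 3 or any of the siRELB replicates. Of 27 tested genes of mismatch and base excision repair 8 were lower (29.6%, beside 14.3%) and 3 higher (11.1%, beside 12.2%). LIG1, the ligase of the lagging strand, was at 39.1, 31.3 and 37.3 CPM against 70.5, 92.6 and 90.4 CPM (-1.24, adjusted p = 0.000739), and the flap nuclease FEN1 differed by -0.86. The glycosylase TDG (0.86) and the ADP-ribosyltransferase PARP3 (1.13) were higher, PARP3 at 40.8, 41.6 and 42.8 CPM against 19.3, 19.1 and 18.8 CPM. Of this list 5 were lower without siNFKB2 replicate 2. Of 20 tested end joining genes 4 were lower (20%, beside 14.3%) and 2 higher (10%, beside 12.2%), with a median of -0.09. The end joining shares were thus near those of all tested genes. XRCC5, the Ku80 subunit that caps broken ends, was at 453, 293 and 291 CPM against 688, 657 and 647 CPM (-0.94, adjusted p = 0.00263). Its partner XRCC6 (-0.05), chosen after its values were seen, did not pass. SHLD2, a shieldin subunit that limits resection, was higher by 0.65, and 10.9% of its exonic length lies opposite GLUD1. The lower count of end joining was 1 without siNFKB2 replicate 3 and 2 without siNFKB2 replicate 2, siRELB replicate 1 or siRELB replicate 2. The higher count was 1 without siNS replicate 3, siNFKB2 replicate 1, 2 or 3, or siRELB replicate 2 or 3.

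Of 20 tested checkpoint genes, which stop the cycle at damaged DNA, 7 were lower (35%, beside 14.3% of all tested genes). None was higher by edgeR (beside 12.2%), 1 was at an unadjusted p under 0.05 and none by DESeq2. The replicate block gave 8 lower and 1 higher. TIMELESS, a protector of replication forks, was at 70.8, 42.9 and 55.9 CPM in siNFKB2 against 133, 126 and 131 CPM in siRELB (difference -1.20, adjusted p = 0.0009), and the phosphatase CDC25C differed by -1.10. The apical kinases ATM (0.28) and ATR (-0.04), chosen after their values were seen, did not pass. The checkpoint count was 3 without siNFKB2 replicate 2, siNFKB2 replicate 3 or siRELB replicate 3 and 4 without siRELB replicate 2, and 1 was higher without siNS replicate 1. Of 28 tested p53 targets 7 were higher (25%, beside 12.2% of all tested genes) and 2 lower (7.14%, beside 14.3%). With the replicate block 12 were higher and 4 lower. GADD45A, a stress-induced growth inhibitor, was at 214, 332 and 419 CPM against 131, 167 and 165 CPM (1.06, adjusted p = 0.00733), while XPC, the damage sensor of nucleotide excision repair, differed by -0.78 and lies partly opposite AC093495.1 (23.8% of its exonic length). The p53 targets had 4 higher members without siNFKB2 replicate 2.

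Metabolic lists differed from one another. Of 24 tested genes of cholesterol synthesis (of 26 listed), 13 were higher (54.2%, beside 12.2% of all tested genes). Lower was 1 (4.17%, beside 14.3%), and the median was 0.44. The block gave 16 higher and 2 lower. HMGCS1, the synthase that starts the mevalonate pathway, was at 1318, 1967 and 1756 CPM in siNFKB2, 703, 764 and 769 CPM in siRELB and 563, 409 and 459 CPM in siNS (difference 1.17, SE 0.162, adjusted p = 0.00084). SQLE, which makes the first oxygenated sterol intermediate, was at 471, 696 and 550 CPM against 261, 315 and 297 CPM in siRELB (0.98, adjusted p = 0.00136), with siNS below both at 216, 183 and 203 CPM. MSMO1 (1.10) and FDPS (0.66) were higher too. FDPS shares 18.6% of its exonic length with RUSC1-AS1 and HMGCS1 15.0% with AC114947.2, both on the opposite strand. The higher count was 7 without siNFKB2 replicate 2 or siRELB replicate 2 and 8 without siRELB replicate 1 or 3. The single lower call was lost without siNS replicate 3, siNFKB2 replicate 1 or 2, or siRELB replicate 2 or 3.

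Of 37 tested genes of hypoxia and glycolysis 17 were higher (45.9%, beside 12.2% of all tested genes) and 3 lower (8.11%, beside 14.3%). The median was 0.42, and the block gave 21 higher and 5 lower. ALDOC, an aldolase, was at 14.8, 23.9 and 16.3 CPM in siNFKB2 against 4.76, 3.42 and 3.01 CPM in siRELB (difference 2.29, adjusted p = 0.000277), and PDK1, which keeps pyruvate out of mitochondria, was at 41.6, 52.0 and 46.6 CPM against 24.7, 21.5 and 23.5 CPM (1.01). Abundant glycolytic enzymes moved less, such as PKM at 5496, 6297 and 5191 CPM against 3801, 3690 and 3601 CPM (0.61) and GAPDH at 0.51, both chosen after their values were seen. ARRDC4 (1.82), a regulator of glucose uptake, and its relative TXNIP (-1.38, chosen after its values were seen) went in opposite directions. NDRG1, a gene induced by low oxygen, was at 43.7, 20.2 and 21.2 CPM in siNFKB2 against 150, 118 and 121 CPM in siRELB (-2.19, adjusted p = 0.000556), so the list did not move as a unit. Without siNFKB2 replicate 2, 10 were higher, and without siRELB replicate 3, 9. TXNIP lost its call without siNFKB2 replicate 2 or 3, and 1 member was lower without siNFKB2 replicate 3. Of 46 tested genes of oxidative phosphorylation 1 was lower (2.17%, beside 14.3% of all tested genes) and none higher by edgeR. At an unadjusted p under 0.05, 2 were higher, and DESeq2 gave 2 higher. The block gave 3 lower and 6 higher. The higher count was 2 without siNS replicate 1 or 2 and 1 without siNFKB2 replicate 1. The lower count was 2 without siNS replicate 1 and 0 without siNFKB2 replicate 2 or 3 or siRELB replicate 2 or 3. Of 30 tested targets of NRF2, the oxidant-sensing factor, 9 were higher (30%, beside 12.2%) and 3 lower (10%, beside 14.3%). With the block 14 were higher and 4 lower. HMOX1, heme oxygenase 1, was at 137, 123 and 116 CPM against 48.7, 37.9 and 33.6 CPM (1.64, SE 0.146, adjusted p = 0.000148), and the NRF2 count was 2 without siRELB replicate 2 or 3 and 4 without siNFKB2 replicate 2. Of its 3 lower members 1 was left without siNS replicate 3, siNFKB2 replicate 2 or 3, or siRELB replicate 2 or 3.

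Of 29 tested AP-1 factors and feedback genes of MAP kinases, which respond to growth factors, 13 were higher (44.8%) and 4 lower (13.8%). Over all tested genes the shares were 12.2% and 14.3%. The list's median was 0.52, and the block gave 18 higher and 6 lower. DUSP5, a phosphatase that acts on nuclear ERK, was at 50.6, 110 and 120 CPM in siNFKB2 against 18.6, 19.1 and 19.0 CPM in siRELB (difference 2.30, SE 0.28, adjusted p = 0.000489). SPRED3, an inhibitor of the RAS pathway, was at 46.3, 63.0 and 60.02 CPM against 20.5, 14.5 and 17.2 CPM (1.69), PHLDA1 differed by 1.38 and EGR1, an immediate-early factor, by 0.98. EGR1 was at 42.0, 38.2 and 36.3 CPM in siNFKB2 and 20.7, 18.7 and 19.5 CPM in siRELB. Its siNS libraries, at 32.5, 33.6 and 39.1 CPM, overlapped siNFKB2 and lay above siRELB. Of the factors themselves FOSL1 (1.28) and JUNB (1.53) were higher while FOS (0.35) and JUN (0.05) did not pass, all chosen after their values were seen. JUNB lost its call without siNFKB2 replicate 2 or 3 or any of the siRELB replicates. The AP-1 letters TGANTCA, on either strand, stood in 7.4% of promoters called higher, 4.37% of those called lower and 5.23% of all tested. Over all 27305 promoters of the table the share was 7.76%. Without siNFKB2 replicate 2 the AP-1 list had 8 higher and 2 lower, and 2 were lower without siNFKB2 replicate 3 or siRELB replicate 1.

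The TGF-beta and BMP list was mixed, with 9 of 39 tested higher (23.1%, beside 12.2% of all tested genes). Lower were 8 (20.5%, beside 14.3%), and 13 with the block. BMP2, an inducer of bone, was at 20.4, 26.6 and 23.8 CPM in siNFKB2 against 11.2, 11.5 and 10.9 CPM in siRELB (difference 1.08, adjusted p = 0.000622). Readouts of BMP signalling lay the other way. ID1 was at 70.2, 42.7 and 48.6 CPM against 154, 147 and 130 CPM (-1.42, adjusted p = 0.0011), and SMAD6, an inhibitory SMAD, at 5.47, 1.86 and 2.05 CPM against 19.3, 13.2 and 12.3 CPM (-2.24, adjusted p = 0.00198). CCN2, a matricellular growth factor, was higher by 0.57. Only 5 were higher without siNFKB2 replicate 2 or siRELB replicate 3. Of 9 tested bone lineage genes 6 were higher (66.7%, beside 12.2%) and 1 lower (11.1%, beside 14.3%). RUNX2, the master factor of osteoblasts, was at 5.74, 4.0 and 4.04 CPM against 9.89, 8.89 and 9.57 CPM (-1.04, adjusted p = 0.0035), whereas PHEX (1.91) was higher. PHEX was at low levels, 1.88, 1.45 and 1.72 CPM in siNFKB2 against 0.461, 0.434 and 0.438 CPM in siRELB. The bone list had 3 higher without siNFKB2 replicate 2 or 3.

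Interferon-stimulated genes showed no common direction. Of 26 tested, 3 were higher (11.5%, beside 12.2% of all tested genes) and 5 lower (19.2%, beside 14.3%). The median was -0.17. ISG20, an exonuclease that degrades viral RNA, was at 4.13, 7.43 and 7.61 CPM in siNFKB2 against 1.95, 2.01 and 2.08 CPM in siRELB (difference 1.66, adjusted p = 0.00189), and DDX58, the RNA sensor RIG-I, differed by 0.60. DDX60 was at 5.91, 5.28 and 4.10 CPM against 12.2, 12 and 12.4 CPM (-1.26, adjusted p = 0.00277). The lower count was 1 without siNFKB2 replicate 2, siNFKB2 replicate 3, siRELB replicate 1 or siRELB replicate 2, and 3 without siNS replicate 3 and 2 without siRELB replicate 3. Of 11 tested genes of MHC class I presentation 1 was lower (9.09%, beside 14.3% of all tested genes). It was PDIA3 (-0.56), and its call was lost without siNFKB2 replicate 2 or 3, siRELB replicate 2 or 3, or siNS replicate 3. Without siNS replicate 1, by DESeq2 or with the block, 2 were lower, and with the block 1 was higher.

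Stress response lists held called genes at about the shares of all tested genes. Of 32 tested genes of the integrated stress response 5 were higher (15.6%, beside 12.2%) and 3 lower (9.38%, beside 14.3%), and the block gave 8 and 6. DDIT4, an inhibitor of mTOR, was at 38.3, 109 and 108 CPM against 15.1, 22.8 and 22.4 CPM (2.08, adjusted p = 0.00547), and it shares 41.2% of its exonic length with DDIT4-AS1 on the opposite strand. PPP1R15A, which ends the integrated stress response, differed by 0.98, while SLC6A9, a glycine transporter, differed by -1.19. The lower count was 9 without siNFKB2 replicate 1 and 1 without siNS replicate 3, siNFKB2 replicate 2 or 3, or any of the siRELB replicates. The unfolded protein response had 2 of 24 tested higher (8.33%) and 4 lower (16.7%), or 7 lower with the block. Its sensor ERN1 was at 23.0, 29.2 and 30.0 CPM against 14.1, 15.4 and 13.7 CPM (0.93) and XBP1, whose RNA it splices, at 64.0, 39.0 and 37.2 CPM against 99.0, 105 and 102 CPM (-1.12). Without siNFKB2 replicate 2 or siRELB replicate 2 or 3 the list had 1 higher and 2 lower, and 2 were lower without siNS replicate 3. Ribosomal protein genes, 55 tested, had 3 higher (5.45%, beside 12.2%) and 1 lower (1.82%, beside 14.3%) with a median of 0.21. The replicate block gave 18 higher and 2 lower. DESeq2 gave 5 higher and 1 lower. Leaving out siNS replicate 1 gave 12 higher and siNS replicate 2 gave 8, leaving out siNFKB2 replicate 2 or any of the siRELB replicates gave 1, and leaving out siNFKB2 replicate 1 gave 2 lower.

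Single genes outside these lists stood at the lower end. NPPB, which encodes the natriuretic peptide BNP, was at 0.322, 0.928 and 0.993 CPM in siNFKB2, 12.4, 29.2 and 30.9 CPM in siRELB and 2.26, 5.06 and 2.25 CPM in siNS, a difference of -5.03 (SE 0.522, adjusted p = 0.000284). PDLIM1, a cytoskeletal adaptor, was at 5.96, 4.29 and 5.43 CPM, 34.1, 54.2 and 52.1 CPM, and 13.7, 19.6 and 16.2 CPM in the same order (-3.16). TNNT2, the cardiac form of troponin T, was at 3.06, 1.91 and 2.18 CPM in siNFKB2, 17.9, 22.7 and 23.9 CPM in siRELB and 6.15, 11.6 and 8.4 CPM in siNS (-3.16). In these 3 genes siNS lay between the knockdowns with no overlap on either side. ACKR3, an atypical chemokine receptor, was at 0.698, 0.638 and 0.728 CPM in siNFKB2 against 7.38, 6.72 and 5.64 CPM in siRELB (-3.25, adjusted p = 7.12e-05), with siNS at 7.10, 7.19 and 5.54 CPM. RIPOR2 (-4.11), the interferon-induced GTPase GBP2 (-2.71), the adhesion protein FLRT3 (-2.81), the adrenergic receptor ADRA2C (-2.67) and the noncoding entries WFDC21P (-4.64), LOC100130992 (-2.88) and LUARIS (-2.81) complete the 12 largest falls with EFEMP1. At the upper end TNFSF8, the ligand of CD30, was at 6.76, 8.01 and 9.33 CPM in siNFKB2 against 0.563, 0.271 and 0.438 CPM in siRELB (4.21, SE 0.282, adjusted p = 6.88e-05), and PLCH1, a phospholipase C, differed by 3.4 and the noncoding SCAT8 by 3.26. Of 248 tested genes with a LINC name 46 were higher and 21 lower, with a median of 0.19, beside 12.2% and 14.3% of all tested genes.

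The differences were taken apart by replicate number, since same-numbered libraries deviated together, although numbers 2 and 3 were not clearly told apart. Of the 3934 called genes 3930 had the same direction in all 3 numbers. This largely follows from the calls, which came from the same libraries. For 3903 of the called genes the groups did not overlap, which fixes the direction in every number, so the agreement is no separate support. The difference was smallest in number 1 for 2836 called genes (72.1%), in number 2 for 488 (12.4%) and in number 3 for 610 (15.5%). No such shares were taken over all tested genes. The median over genes called higher was 0.58, 0.86 and 0.82 in numbers 1, 2 and 3, and over genes called lower -0.68, -0.98 and -0.96. For G1/S genes the list's median was -0.50, -0.79 and -0.85, for recombination -0.29, -0.49 and -0.49, and for interleukins and related ligands 0.23, 0.90 and 0.93. NFKB2 itself had its largest difference in number 1, with -4.45, -2.88 and -1.79. Number 1 had the least NFKB2 RNA left in siNFKB2, at 4.86% of the siNS mean. It also had the least RELB RNA left in siRELB, at 9.79% of the siNS mean against 17.1% and 19.7% in numbers 2 and 3. RELB differed by 2.93, 3.14 and 2.97. MMP3 had another order with 3.08, 2.89 and 2.50. Whether the amount of NFKB2 or RELB left bears on these sizes was not tested, since 3 numbers allow no correlation.

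**Figure D5:**
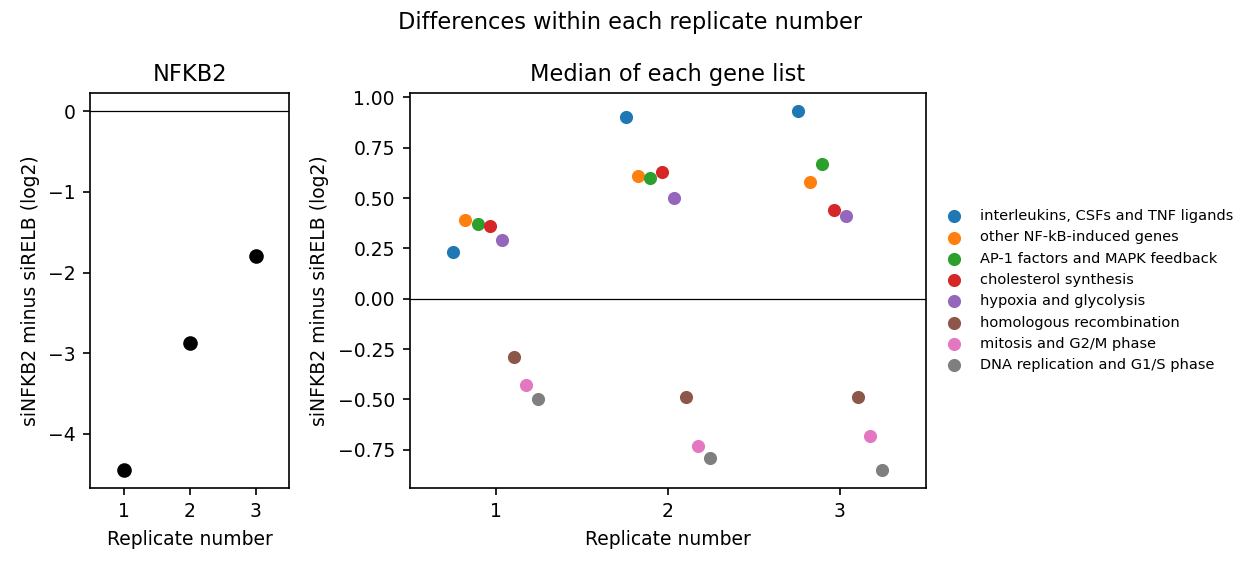
Log2 differences between siNFKB2 and siRELB within each replicate number, for NFKB2 (left) and as the median of each of 8 gene lists (right). NFKB2 goes from -4.45 in number 1 to -1.79 in number 3, while each list's median lies nearest 0 in number 1.

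Total counts ran from 15011789 to 19279572 per library. Mitochondrial rRNA took 0.519% to 2.68% of counts in siNFKB2 and 0.379% to 0.856% in siRELB, highest in siNFKB2 replicate 3, and its part in the results was not tested. Of tested genes below 1 CPM 11.9% were called (median SE 0.475), from 1 to 5 CPM 22.4%, from 5 to 20 CPM 31.5%, from 20 to 100 CPM 29.6% and at 100 CPM or more 28.1% (median SE 0.137). The labelled cell type was checked by markers. The summed level of 11 mesenchymal and U2OS markers was 6180 to 9020 CPM over all 9 libraries. Most of it came from VIM, SPARC, LGALS1, COL1A1 and CD44. Others of the list were near the floor in every library, NT5E at 0.463 CPM or less and COL1A2 at 1.15 CPM or less. For 7 endothelial markers the sum was 5.80 to 8.27 CPM in siNFKB2, 11.9 to 12.9 CPM in siRELB and 9.5 to 13.1 CPM in siNS, with ERG (-1.04) and VWF (-2.50) lower in siNFKB2 among 5 tested. VWF was near the floor, at 0.132 to 0.268 CPM in siNFKB2 and 0.875 to 1.43 CPM in siRELB. Blood and macrophage markers summed to 25.1 to 33.8 CPM in siNFKB2 and 21.4 to 24.7 CPM in siRELB, with CD3E and LYZ at 0 in every library. Most of the sum came from CD68, at 14.2 to 24.4 CPM over all 9 libraries, and HBB, at 2.03 to 6.92 CPM. CD68 shares 81.7% of its exonic length with AC016876.2 on the same strand. Of 5 tested, 2 were higher, ITGAM (1.89) and the lysosomal CD68 (0.50), and 1 lower, HBB. The call of CD68 was lost without siNS replicate 3, siNFKB2 replicate 1 or 2, or any of the siRELB replicates. The lower call was lost without siNS replicate 3, siNFKB2 replicate 2 or 3, or siRELB replicate 1 or 2. The part of these genes in the other results was not tested. Among 13 epithelial markers, summing to 579 to 942 CPM, nearly all of the level came from KRT8 and KRT18, which mesenchymal tumour lines also express, and KRT8 was lower in siNFKB2 (-0.92).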

How the data were processed

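For each library the authors deposited raw read counts by gene symbol, as whole numbers. The submitters' processing notes list Trimmomatic 0.38, STAR 2.7.1a, Subread 1.6.4 and the build GRCh38.p13. What each did, which annotation was used and whether counting was stranded is not given in the sources used here. Entries with a suffix for a further placement held at most 0.0369% of counts per library and were kept apart. Libraries of 1 group always differed beyond sampling noise (chi-square per degree of freedom 3.13 to 75.8), so none was taken for a repeat deposit of another, which does not show that they came from separate cultures.

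In edgeR 4.0.16 (R 4.3.3) the counts were filtered with filterByExpr and scaled by TMM. All 9 libraries entered 1 fit of 3 group means, and siNFKB2 was tested against siRELB by edgeR's quasi-likelihood test, with p-values adjusted by Benjamini-Hochberg. Every adjusted p comes from this test. The SE was derived from the fold change and the F statistic. CPM use TMM-scaled library sizes. Tested on simulated counts for this comparison with 14617 genes, the model recovered 13.6% of genes set to a log2 change of 0.5, 91% at 1 and 100% at 1.5, and called 1 unchanged gene. Far fewer genes were changed there than were called in the data, so these shares do not carry over to the data.

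Replicate numbers come from the labels, which do not say what they share. Over 10615 genes at or above a mean of 5 CPM, same-numbered libraries' deviations from their group means correlated at 0.635, 0.377 and 0.581. All were over 0.1, the bar set for taking the numbers to pair the samples. The main fit still left the numbers out, because the labels do not say that they pair the samples. The calls and adjusted p-values given are therefore unpaired unless the block is named. Among differently numbered pairs, siNFKB2 replicate 3 with siRELB replicate 2 correlated at 0.464 and siNFKB2 replicate 2 with siRELB replicate 3 at 0.101. Pairs of number 1 with another number were all negative. Number 1 thus stood apart, while numbers 2 and 3 were not clearly told apart. Blocked counts are given at least where the block moves a count by over 1.5 times.

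Genes are named by a rule: the NF-kB subunits; the 12 largest rises and 12 largest falls among calls that reach 5 CPM on average in the higher group and do not overlap between groups; and, by adjusted p, the first 4 called members of each list, or the first 8 for the NF-kB, cytokine and recombination lists. Some genes that meet it are not reported here. The comparison, the lists and their members were chosen with earlier results of these data known. Lists are described by counts and medians, with no set test. Alternatives were RLE size factors, DESeq2 1.42.0, other filters, only the 6 libraries, the replicate block, summed suffixes and leaving out libraries. Gene positions and overlaps of at least 10% are from GENCODE 29, not necessarily the annotation the authors counted on, and promoters from RefSeq on GRCh38.p14.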

Additional observations from a re-analysis of the deposited data

How the results depend on the processing

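Over 18 alternatives no named gene that was called changed direction. Without the replicate block 1813 genes were called higher and 2121 lower in siNFKB2, and with it 2957 and 3097. The block with only the 6 libraries compared gave 3458 and 3509, and leaving out the 3 libraries numbered 1 gave 3252 and 3348. Leaving out 1 library at a time gave 979 to 2364 higher and 1162 to 2553 lower. The cause of these shifts was not tested. RLE size factors gave 3928 called genes, DESeq2 4542, no filter on low counts 3807 and a mean of at least 5 CPM 3328, against 3934. NFKB2 was at -2.47 (adjusted p = 0.051) without siNFKB2 replicate 2, and its values ran from -3.42 to -2.09 over all alternatives. RELB was called in all 18. Of 187 called genes that the naming rule or the text takes up, between 153 and 187 stayed called wherever all were tested, the fewest without siNFKB2 replicate 2, and the block lost none of them. Precision was lowest at low depth, with a median SE of 0.475 on the log2 scale below a mean of 1 CPM and 0.137 at 100 CPM or more.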
